A study of Homo sapiens with 6 samples.

Results

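Small nucleolar RNA host genes were followed through 3 human lung cancer cell lines treated with AL-X. The set holds every gene whose symbol is SNHG followed by a number, together with GAS5, ZFAS1, EPB41L4A-AS1 and DANCR. It came to 32 of the 60671 genes in the counts table, and all 32 had coordinates in GENCODE release 29. Of these, 30 passed the filter on low counts and were tested across lines, and SNHG18 and SNHG27 did not pass it.

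Most small nucleolar RNAs (snoRNAs) of human cells are cut out of introns of other genes and guide the chemical modification or processing of ribosomal RNA. A host gene of the SNHG kind appears to be transcribed largely for its introns: the exons are joined into a spliced RNA that carries no long reading frame. Ribosomes that engage short frames in such an RNA expose it to nonsense-mediated decay (NMD), so that spliced RNA of GAS5 and of SNHG1 is known to accumulate when translation or NMD is blocked. Several host genes, GAS5 among them, also start with the pyrimidine run of a 5′ terminal oligopyrimidine (TOP) message, the start that ribosomal protein genes use.

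AL-X is 9α,11α-dihydroxy-kaurenoic acid, a diterpenoid. A549, HCC827 and H1975 are lung adenocarcinoma lines, all labelled WT. HCC827 and H1975 are known to carry EGFR mutations, so the label is not read here as an absence of mutations. The AL-X group received 10 µg/mL for 48 h and the DMSO group received the solvent for 48 h, with 1 library of each treatment in each line and 6 libraries in all. Polyadenylated RNA was sequenced and counted per gene, so the values are levels of RNA and give no rate of decay.

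Library totals were 98139178 to 126840915 counts. The keratins KRT8 and KRT18, epithelial markers, had at least 45282 counts in every library. EPCAM, another epithelial marker, was low in A549, with 99 counts with AL-X and 325 with DMSO, against at least 23677 in each HCC827 and H1975 library. CDH1, the epithelial cadherin, had 1054 counts with AL-X and 25431 with DMSO in A549, a log2 fold of -3.74, and was at 0.58 in HCC827 and 0.01 in H1975. EGFR, a receptor listed with these markers, had 2593 counts with AL-X and 38826 with DMSO in A549, and its log2 folds were -3.05, -0.72 and -0.58 in A549, HCC827 and H1975. The keratin KRT7 was at 1.45, -0.26 and 1.68. CDH1 and EGFR thus differed with AL-X most in A549, the line with the highest host gene folds, and their part in the host gene results was not tested. Of the markers of other cells, PTPRC and CD3E had 0 counts in all 6 libraries, and PECAM1 and COL3A1 had at most 102 in any. COL1A1 had 79 to 2361 counts. CD68, a lysosomal protein gene used as a macrophage marker, had 46355 counts with AL-X and 10274 with DMSO in HCC827 (log2 2.41), and was at 0.30 in A549 and -0.62 in H1975. Genes encoded by mitochondrial DNA held 0.0201%, 0.656% and 0.0535% of counts with AL-X in A549, HCC827 and H1975, against 6.87%, 6.69% and 6.41% with DMSO. The TMM scaling factors of the AL-X libraries of A549, HCC827 and H1975 were 0.557, 1.27 and 0.903, against 1.12, 1.17 and 1.20 for the DMSO libraries. With mitochondrial genes left out before scaling, the counts of host genes that differed by 2-fold within a line, given below, were unchanged in A549, HCC827 and H1975.

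The DNA around the starts of the host genes is shown first for 4 genes with a TOP start and for SNHG1, whose RefSeq entry lacks one by the rule used here and which was 29.5-fold higher with AL-X in A549. The windows run from 35 bases before the RefSeq start (GRCh38.p14) to 30 bases from it, on the gene's strand, with the pyrimidine run at the start in capitals. SNHG12 (chr1:28581844-28581908, minus strand), SNHG5 (chr6:85678704-85678768, minus strand), ZFAS1 (chr20:49278607-49278671, plus strand), SNHG19 (chr16:2155329-2155393, minus strand) and SNHG1 (chr11:62855856-62855920, minus strand) read as follows.
SNHG12: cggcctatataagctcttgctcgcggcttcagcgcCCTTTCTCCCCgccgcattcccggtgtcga
SNHG5: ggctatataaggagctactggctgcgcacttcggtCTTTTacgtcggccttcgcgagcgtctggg
ZFAS1: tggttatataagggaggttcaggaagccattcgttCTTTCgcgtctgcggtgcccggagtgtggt
SNHG19: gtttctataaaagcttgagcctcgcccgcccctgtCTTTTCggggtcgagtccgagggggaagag
SNHG1: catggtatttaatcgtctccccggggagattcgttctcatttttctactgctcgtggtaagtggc

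RefSeq promoter entries were found for 28 of the 32 genes, and not for SNHG6, SNHG9, SNHG15 and SNHG25. A TOP start was taken as a C at the first base followed by at least 4 C or T on the sense strand. It was present in 7 of the 28, or 25.0%, namely SNHG12, SNHG5, ZFAS1, SNHG19, SNHG32, SNHG4 and SNHG18. Of 78 ribosomal protein entries 60.3% had such a start, and of all 35116 promoter entries 4.07% had it. The letters TATAA, 40 to 21 bases before the start on the sense strand, were present in 6 of 28 (21.4%), among them the first 4 genes shown above, against 3.77% of all entries. CACGTG, on either strand anywhere in the 300 bases, was present in 7.14% of the host genes and 7.26% of all entries. TGACGTCA was in 0 of 28 and 1.85% of all, TGACNNNGC in 10.7% and 13.3%, and TTGCATCA in 0 of 28 and 0.866%, each counted on both strands. Starts differ between annotations. The RefSeq entry of GAS5 starts with an A, whereas 6 of its 29 GENCODE transcripts share a first 30 bases that open with a pyrimidine run. In GENCODE 29, 2 of 8 transcripts of SNHG16 and 1 transcript each of SNHG1, SNHG3, SNHG8 and SNHG11 also have a TOP start that the RefSeq entry lacks. So do 3 of 5 transcripts of SNHG6 and 2 of 2 of SNHG25, genes without a RefSeq entry. Transcripts were looked up by gene name. None were found under the names SNHG29, SNHG30, SNHG31 and SNHG32, so the transcripts of these genes were not scanned.
GAS5: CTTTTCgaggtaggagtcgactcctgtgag

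The amount of host gene RNA differed between the treatments to an extent that depended on the line. All 32 genes together took 0.402% of counts in A549 with AL-X (exact binomial 95% interval 0.401% to 0.403%), against 0.0920% with DMSO (0.0915% to 0.0926%). In H1975 they took 0.185% with AL-X (0.184% to 0.186%) and 0.0993% with DMSO (0.0987% to 0.0999%). In HCC827 the shares were 0.108% with AL-X (0.107% to 0.108%) and 0.114% with DMSO (0.113% to 0.114%). The share was thus several times higher with AL-X in A549, higher in H1975, and slightly lower in HCC827. Such intervals cover counting error only, because reads may be copies of the same molecule, and each line has no replicate. With mitochondrial genes left out of the totals, the shares were 0.402%, 0.108% and 0.185% with AL-X in A549, HCC827 and H1975, against 0.0988%, 0.122% and 0.106% with DMSO. In RNA from a bulk culture, a gene made by fewer cells and a gene made at a lower level per cell cannot be told apart.

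A few genes carried most of that share in A549. SNHG1, GAS5, ZFAS1 and SNHG12, 4 genes picked after their values were seen, held 64.0% of host gene counts in A549 with AL-X and 20.0% with DMSO. They held 35.5% with AL-X and 28.6% with DMSO in HCC827, and 32.7% with AL-X and 20.1% with DMSO in H1975. SNHG29, the host gene with the most counts in each DMSO library, held 9.28% with AL-X and 25.6% with DMSO in A549. Its share was 26.8% with AL-X and 29.2% with DMSO in HCC827, and 24.9% with AL-X and 28.4% with DMSO in H1975. Per kilobase of merged exon, the level of SNHG29 was 56.8, 76.1 and 62.7 CPM per kb with DMSO in A549, HCC827 and H1975. In A549 with AL-X the highest levels per length were those of SNHG1 (522 CPM per kb), ZFAS1 (399), GAS5 (260) and SNHG12 (199), above SNHG29 (179). CPM is the count divided by the TMM-scaled library total, in counts per 1e6.

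**Figure D1:**
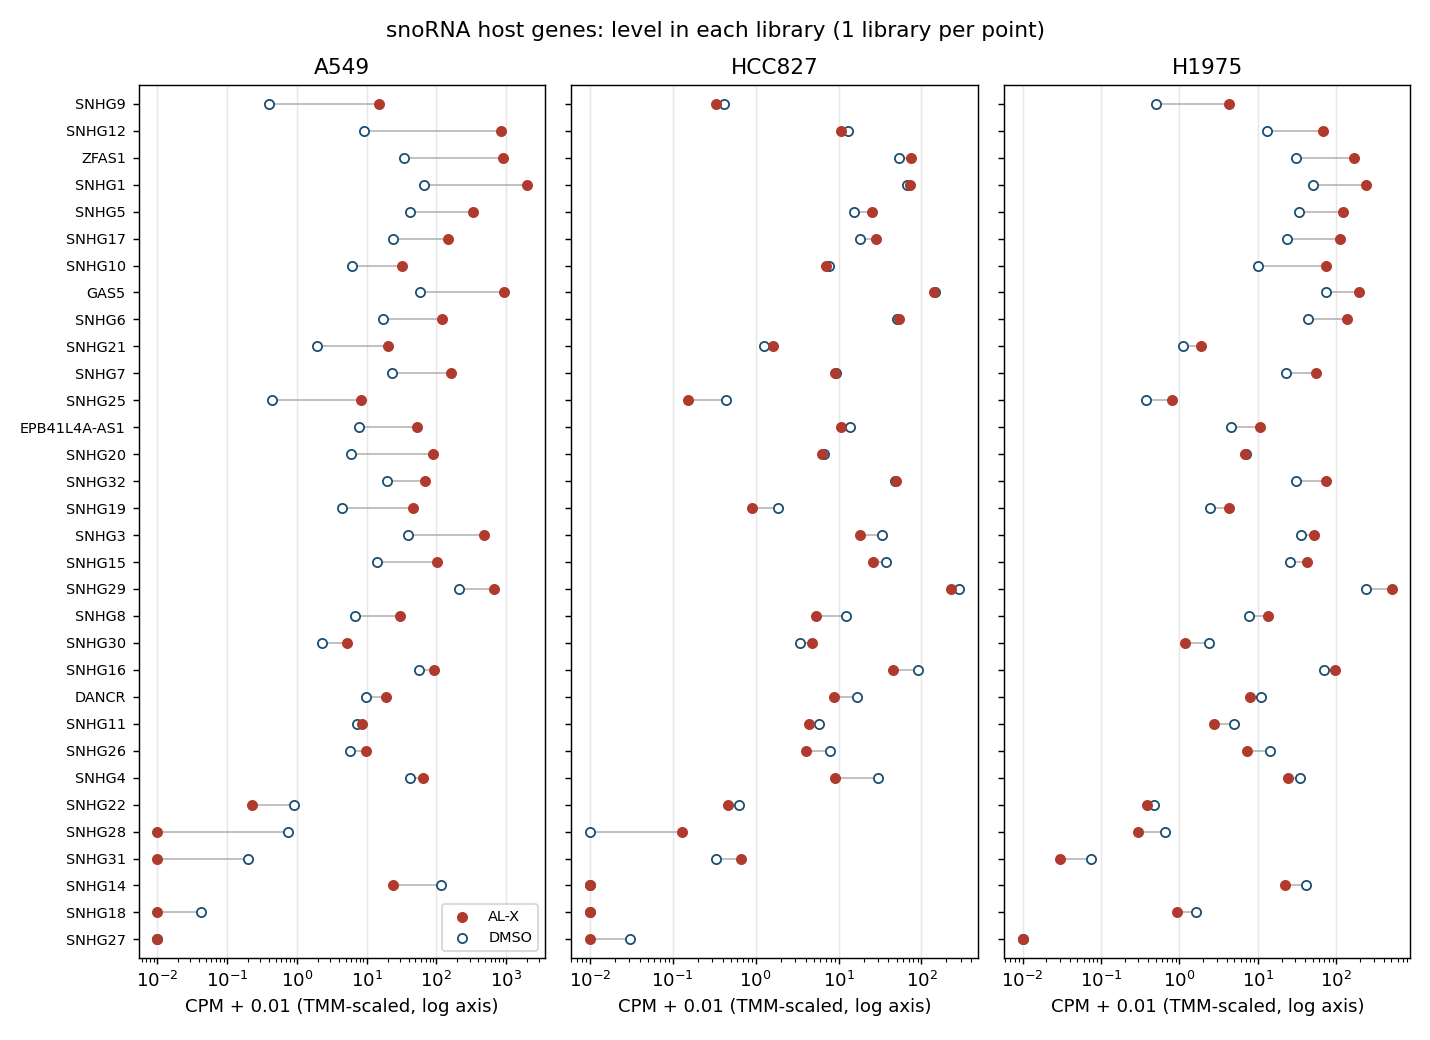
Level of each of the 32 host genes in the AL-X library (filled red) and the DMSO library (open blue) of A549, HCC827 and H1975, as TMM-scaled CPM plus 0.01 on a log axis, ordered by across-line fold, with SNHG18 and SNHG27, which were not tested, at the bottom. In A549 the red points of most genes lie to the right of the blue ones, by the widest gap for SNHG12 (850 against 9.06 CPM); in HCC827 most pairs nearly coincide.

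Within each line a gene was considered where at least 1 of the 2 libraries reached 5 CPM, and a fold of 2 or more was taken as a difference. No test was made between 2 single libraries. In A549, 21 of 27 host genes considered were higher with AL-X by this measure, where 29.8% of all 11973 genes considered were higher. SNHG14 was the only one of the 27 that was lower (31.8% of all genes were). A fold of 10 or more was reached by 10 of the 27, against 4.28% of all genes. By any amount, 26 of 27 were higher (49.7% of all genes). SNHG9, SNHG19, SNHG21, SNHG25 and SNHG30 reached 5 CPM in A549 only with AL-X. Their DMSO levels were 0.394, 4.51, 1.945, 0.435 and 2.27 CPM, so passing the filter favoured a higher call for them. All were counted as 2-fold higher, and all but SNHG30 as 10-fold higher. In H1975, 12 of 21 were higher (15.4% of all 11818 genes), 0 of 21 lower (17.8% of all) and 0 of 21 higher by 10-fold (0.804% of all). By any amount, 16 of 21 were higher (52.4% of all). EPB41L4A-AS1, counted as higher, reached 5 CPM in H1975 only with AL-X (4.55 CPM with DMSO). In HCC827, 0 of 21 were higher (10.7% of all 11938) and SNHG4, SNHG8 and SNHG16 were lower (17.3% of all). None of the 21 was higher by 10-fold (0.561% of all), and 6 of 21 were higher by any amount (47.9% of all). The median log2 fold of the host genes considered was 2.82, -0.26 and 1.21 for A549, HCC827 and H1975, beside medians of -0.02, -0.04 and 0.06 for all genes considered.

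The scale on which libraries are compared moves these counts. With library totals as the only scaling, the median of all genes was -1.12, 0.08 and -0.38 for A549, HCC827 and H1975. On that scale 17 of 25 host genes were 2-fold higher in A549 (12.5% of all genes), 0 of 22 in HCC827 (13.8%) and 7 of 22 in H1975 (6.9%), where 3 were lower (28.2%). The median of the host genes minus the median of all genes was 2.93, -0.14 and 1.13 in A549, HCC827 and H1975 on library totals, and 2.84, -0.21 and 1.14 on the TMM scale. A scaling factor shifts all genes of a line alike, so this difference moves little by construction, through the genes considered.

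**Figure D2:**
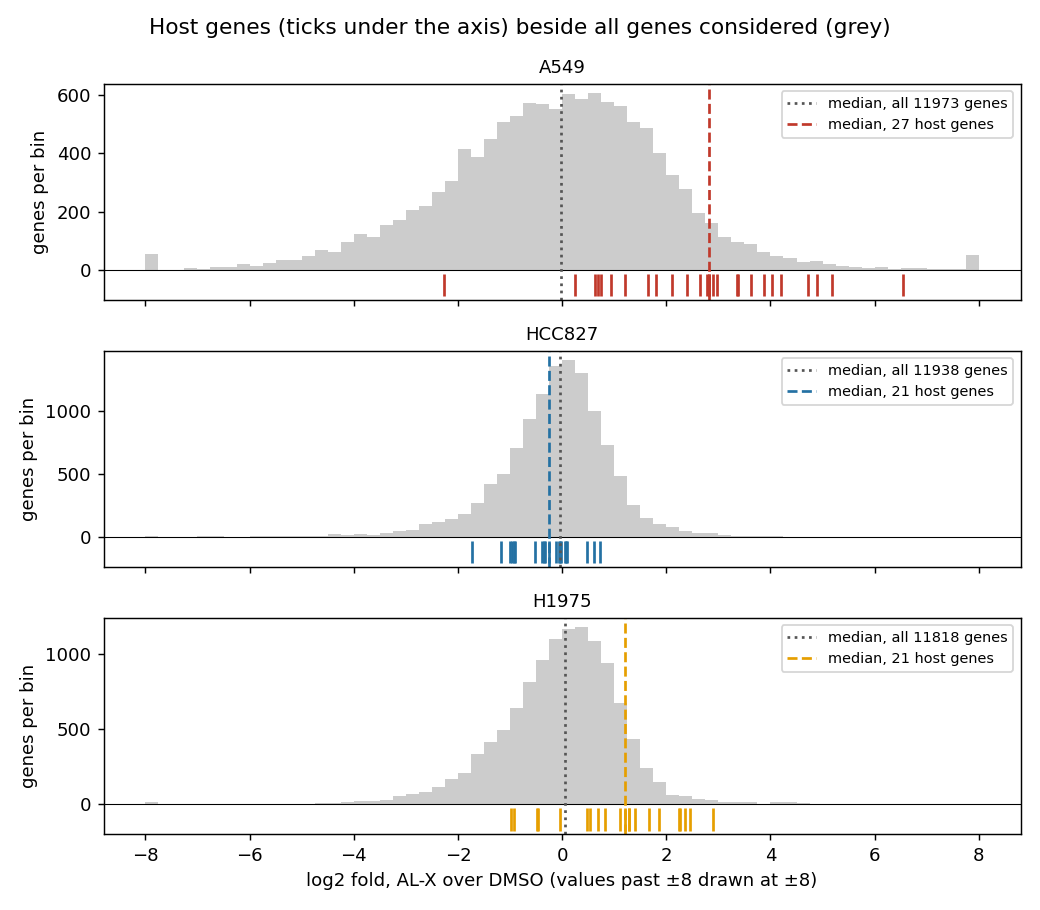
Distribution of the log2 fold, AL-X over DMSO, of all genes considered in A549, HCC827 and H1975 (grey bars of genes per bin), with the host genes as ticks under the axis. The dotted line is the median of all genes and the dashed line that of the host genes, which lies at 2.82 in A549, -0.26 in HCC827 and 1.21 in H1975.

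The hosts of box C/D snoRNAs, which guide methylation of ribosomal RNA, included the genes with the most host gene counts. SNHG1 (ENSG00000255717, chr11:62851988-62855914, minus strand) had 131991 counts in A549 with AL-X and 8083 with DMSO, 9013 and 9922 in HCC827, and 24274 and 6239 in H1975. Its log2 fold was 4.88 in A549 (95% counting interval 4.85 to 4.92), 0.10 in HCC827 (0.06 to 0.14) and 2.27 in H1975 (2.23 to 2.31). It was the most counted host gene in A549 with AL-X, as SNHG29 was in the other 5 libraries. ZFAS1 (ENSG00000177410, chr20:49278178-49295738, plus strand), which hosts the SNORD12 family and lies head to head with ZNFX1, had 60219 counts with AL-X and 4124 with DMSO in A549, 9233 and 7865 in HCC827, and 17173 and 3876 in H1975. It was higher with AL-X in each line, though by less than 2-fold in HCC827, at log2 folds of 4.72, 0.47 and 2.46 for A549, HCC827 and H1975.

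GAS5 (ENSG00000234741, chr1:173863900-173868882, minus strand) was first described as a transcript of growth-arrested cells. It had 63656 counts with AL-X and 7021 with DMSO in A549, 17904 and 21559 in HCC827, and 19618 and 9159 in H1975. Its log2 folds were 4.04 for A549, -0.03 for HCC827 (counting interval -0.06 to 0.00) and 1.41 for H1975, with the HCC827 libraries nearly level. SNHG5 (ENSG00000203875, chr6:85660950-85678748, minus strand), host of SNORD50B, had 22458 counts with AL-X and 5186 with DMSO in A549, 3138 and 2242 in HCC827, and 12151 and 4140 in H1975. Like ZFAS1 it was higher with AL-X in each line, at log2 folds of 2.97, 0.72 and 1.86 for A549, HCC827 and H1975.

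SNHG6, SNHG32 and SNHG29 are further box C/D hosts. SNHG6, host of SNORD87, had 8201 counts with AL-X and 2091 with DMSO in A549, 6631 and 7443 in HCC827, and 13786 and 5386 in H1975, for log2 folds of 2.83, 0.07 and 1.66. SNHG32, host of SNORD48 and SNORD52, had log2 folds of 1.80, 0.05 and 1.29 in A549, HCC827 and H1975. It shares 418 exon bases on the same strand with ENSG00000285565, which had 5794 counts with AL-X and 0 with DMSO in A549, 0 and 52 in HCC827, and 1192 and 71 in H1975. How reads of that overlap were assigned is not stated. SNHG29, host of the SNORD49 pair and SNORD65, had 45392 counts with AL-X and 26023 with DMSO in A549, 28264 and 42150 in HCC827, and 51696 and 29524 in H1975. Its log2 folds were 1.66, -0.34 and 1.12, a narrower range than that of SNHG1 or GAS5.

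SNHG16, SNHG19, SNHG26 and SNHG30 also host box C/D snoRNAs and were not 2-fold higher with AL-X outside A549. SNHG16 had 6178 counts with AL-X and 6904 with DMSO in A549, 5623 and 13360 in HCC827, and 9652 and 8616 in H1975, with log2 folds of 0.69, -1.01 and 0.47. Its 95% counting interval in HCC827, -1.05 to -0.96, spans the 2-fold limit. SNHG16 shares 1639 exon bases on the opposite strand with ENSG00000284526, which had 39 counts with AL-X and 66 with DMSO in HCC827. SNHG19 had log2 folds of 3.37, -1.05 and 0.79 in A549, HCC827 and H1975 and stayed under 5 CPM outside A549. SNHG26 was at 0.74, -0.97 and -0.98, and SNHG30 at 1.22, 0.49 and -1.01.

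SNHG14 (ENSG00000224078, chr15:24978583-25419462, plus strand) hosts the imprinted SNORD115 and SNORD116 clusters of the Prader-Willi region, and its far end runs antisense to UBE3A in neurons. Unlike most host genes it was lower with AL-X. It had 1610 counts with AL-X and 14042 with DMSO in A549, and 2205 with AL-X and 5161 with DMSO in H1975, for log2 folds of -2.27 and -0.92. HCC827 held 0 counts in both libraries, which allows at most 0.0240 CPM with AL-X and 0.0203 CPM with DMSO at a floor of 3 counts. SNRPN, the protein gene at the head of that locus, had 5665 counts with AL-X and 7025 with DMSO in A549, 5702 and 3871 in H1975, and 0 and 0 in HCC827. UBE3A was counted in every library, with at least 6191 counts.

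The hosts of box H/ACA snoRNAs, which guide the conversion of uridine to pseudouridine, held the widest line difference. Among them, SNHG4 and SNHG8 were lower in HCC827 by 2-fold or more. SNHG12 (ENSG00000197989, chr1:28578538-28583132, minus strand) hosts SNORA44, SNORA61 and SNORA16A and also the C/D snoRNA SNORD99. It had 57243 counts with AL-X and 1104 with DMSO in A549, 1341 and 1895 in HCC827, and 6794 and 1648 in H1975. Its level in A549 was 850 CPM with AL-X and 9.06 CPM with DMSO, or 93.6-fold (log2 6.55, 95% counting interval 6.47 to 6.64). The log2 fold was -0.26 in HCC827 (-0.36 to -0.16) and 2.35 in H1975 (2.27 to 2.43). SNHG12 took 11.7% of host gene counts in A549 with AL-X and between 1.09% and 3.28% in the other 5 libraries.

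SNHG3 (ENSG00000242125, chr1:28505980-28510892, plus strand), host of SNORA73A and SNORA73B, the U17 snoRNAs used in cleavage of the ribosomal RNA precursor, lies near SNHG12 on chromosome 1. It had 32544 counts with AL-X and 4792 with DMSO in A549, 2250 and 4961 in HCC827, and 5188 and 4404 in H1975. Its log2 folds were 3.62, -0.90 and 0.54, so that it was higher in A549 and lower in HCC827, there by less than 2-fold. SNHG17 had 9983 counts with AL-X and 2879 with DMSO in A549, 3501 and 2703 in HCC827, and 11254 and 2950 in H1975. With log2 folds of 2.65, 0.61 and 2.24, it was higher with AL-X in every line, as ZFAS1 and SNHG5 were, each by less than 2-fold in HCC827.

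SNHG9, a short gene 99 bases from the start of RPS2, had 1001 counts with AL-X and 48 with DMSO in A549, 40 and 59 in HCC827, and 432 and 61 in H1975. The log2 folds were 5.18 (95% counting interval 4.82 to 5.69), -0.31 (-0.94 to 0.28) and 3.09 (2.74 to 3.54). In H1975 SNHG9 reached 4.27 CPM with AL-X, under the minimum of 5 CPM, so it is not among the genes considered there. SNHG7 (2.82, -0.04 and 1.28 in A549, HCC827 and H1975) and EPB41L4A-AS1 (2.78, -0.35 and 1.21) were higher by 2-fold or more in A549 and H1975. SNHG15 (2.90, -0.53 and 0.69) was so in A549 and fell short of 2-fold in H1975. SNHG7 shares 1094 exon bases with DIPK1B and EPB41L4A-AS1 shares 1659 with EPB41L4A, each on the opposite strand. Those partners did not move with the hosts in A549: DIPK1B had 93 counts with AL-X and 1539 with DMSO, and EPB41L4A had 99 and 2274. Because the strand setting of the counting is not given, reads of a gene and of its antisense partner cannot be told apart.

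SNHG4, SNHG8 and DANCR differed from these. SNHG4, host of SNORA74A, had 4359 counts with AL-X and 5067 with DMSO in A549, 1142 and 4465 in HCC827, and 2469 and 4273 in H1975, for log2 folds of 0.64, -1.72 and -0.48. It had the lowest HCC827 fold of the 21 host genes considered there. SNHG4 shares 626 exon bases on the same strand with MATR3, which had 17844 counts with AL-X and 20073 with DMSO in HCC827. How reads of that overlap were assigned is not stated. SNHG8 was at 2.10, -1.17 and 0.82. DANCR, which holds epidermal progenitor cells undifferentiated, was at 0.95, -0.93 and -0.46, and SNHG11 at 0.25, -0.38 and -0.86.

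SNHG10, SNHG20, SNHG21 and SNHG22 host snoRNA relatives that reside in Cajal bodies (scaRNAs). SNHG10, host of SCARNA13, had 2184 counts with AL-X and 744 with DMSO in A549, 889 and 1134 in HCC827, and 7458 and 1240 in H1975. Its log2 folds were 2.41, -0.11 and 2.90, and H1975 exceeded A549. SNHG20, host of SCARNA16, had 5950 counts with AL-X and 727 with DMSO in A549, 791 and 978 in HCC827, and 690 and 879 in H1975. It was 14.8-fold higher in A549 and within its counting interval of no difference in both other lines (log2 -0.07 and -0.04). SNHG21 had 1355 counts with AL-X and 237 with DMSO in A549, 201 and 183 in HCC827, and 189 and 137 in H1975, for log2 folds of 3.36 (95% counting interval 3.17 to 3.58), 0.37 and 0.76. Of its 1053 exon bases it shares 768 on the same strand with ENSG00000252690, which was at 1.55 in A549. SNHG22, at -1.96, -0.46 and -0.31, had few counts.

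The rest were near the floor in at least 1 line. SNHG25, host of SNORD104, had 559 counts with AL-X and 53 with DMSO in A549, 18 and 63 in HCC827, and 81 and 46 in H1975. SNHG28 had 0 counts with AL-X and 89 with DMSO in A549, which is at least 16.4-fold lower at a floor of 3 counts in the AL-X library. It had 15 and 0 in HCC827, at least 5.91-fold higher at the same floor in the DMSO library, and 29 and 80 in H1975. All 2242 exon bases of SNHG28 are shared on the same strand with ENSG00000256029, which had 12 counts with AL-X and 231 with DMSO in A549, 64 and 45 in HCC827, and 0 and 98 in H1975. How reads were divided between them is not stated, so the counts of SNHG28 are uncertain. SNHG31 had 0 counts with AL-X and 23 with DMSO in A549 (at least 4.24-fold lower), 82 and 47 in HCC827, and 2 and 8 in H1975. SNHG18 had 0 and 4 counts in A549, 0 and 0 in HCC827, and 92 and 202 in H1975. SNHG27 had 3 counts in HCC827 with DMSO and 0 in the other 5 libraries.

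**Figure D3:**
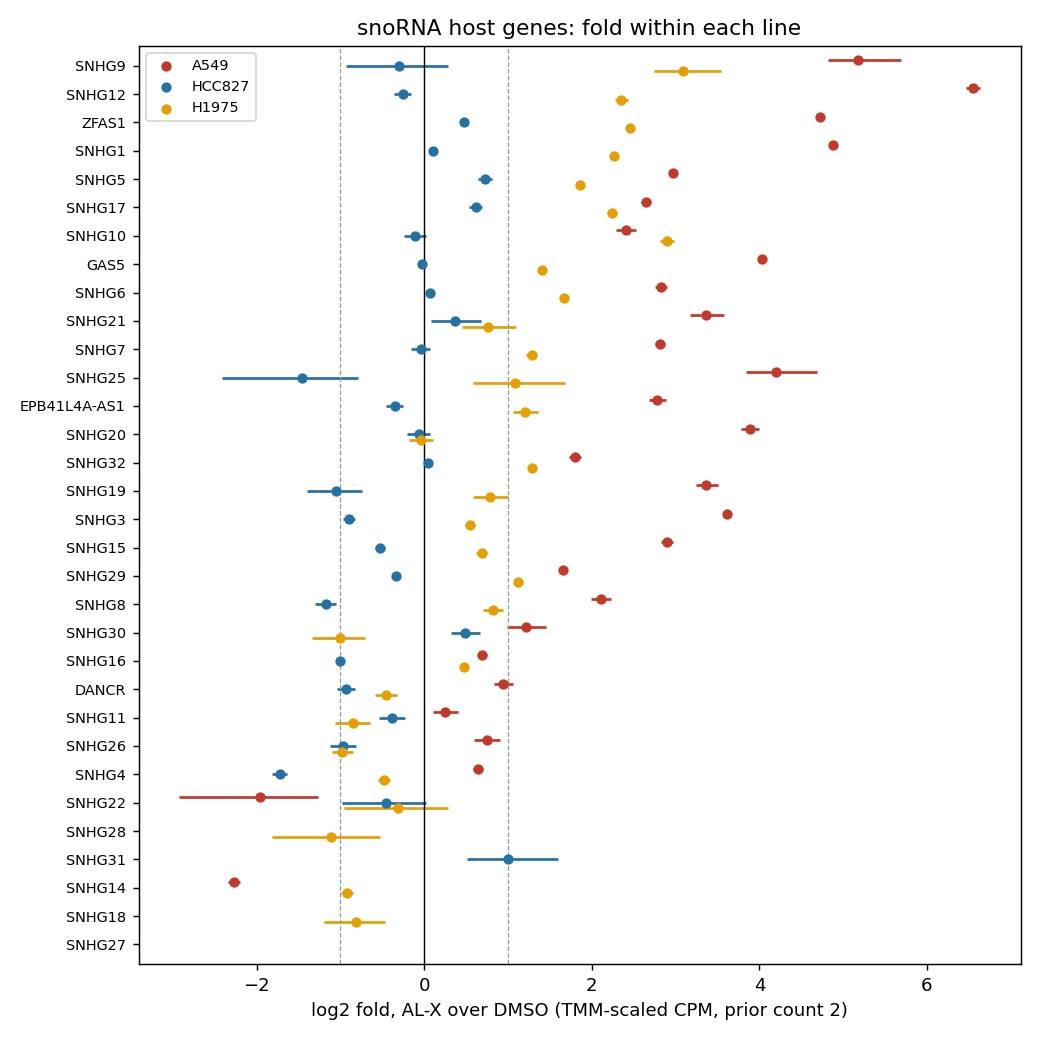
Log2 fold, AL-X over DMSO, of the host genes within A549 (red), HCC827 (blue) and H1975 (orange), with bars for the 95% counting interval; dashed lines mark 2-fold, and a point is left out where a library held 0 counts or both together held fewer than 20. The red point is farthest right for SNHG12 (6.55), the orange points of most genes lie between red and blue, and the blue points lie between -1.72 and 1.00.

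The 3 lines kept the same order of fold for most genes. Of the 20 host genes considered in every line, 18 had the order A549, then H1975, then HCC827 (28.4% of all 10210 genes considered in every line had it), and SNHG10 and SNHG26 did not. A fold of 2 or more in A549 and H1975 but not in HCC827 was seen in 12 of the 20 (10% of all genes). Of the 20, 6 had a positive fold in each line (23.5% of all genes). The share of mitochondrial counts with AL-X had the reverse order, lowest in A549 (0.0201%), then H1975 (0.0535%), then HCC827 (0.656%), and its part in the order of the host genes was not tested.

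For the 20 host genes considered in every line, the lines lay closer together with DMSO than with AL-X, as they did for all genes. SNHG14 is not among the 20, and its level with DMSO was 115, 0 and 41.2 CPM in A549, HCC827 and H1975. For each of the 20 genes the highest line was divided by the lowest within a treatment. The median of this ratio was 6.04 with AL-X and 1.71 with DMSO, beside 3.24 with AL-X and 1.73 with DMSO over all 10210 genes. SNHG12 spanned 79.1-fold over the lines with AL-X and 1.45-fold with DMSO. SNHG1 spanned 27.1-fold with AL-X and 1.35-fold with DMSO, and SNHG3 26.8-fold with AL-X and 1.17-fold with DMSO. With DMSO the ratio reached 2.99 for EPB41L4A-AS1 and 2.94 for SNHG6. It was wider with AL-X in 18 of the 20, all but SNHG6 and SNHG32. A wider ratio was also common over all genes (81.4%).

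The across-line comparison asks whether a shared effect of AL-X exceeded the spread between lines. With edgeR's quasi-likelihood test, the line as a block and Benjamini-Hochberg adjustment over 20344 genes, 0 of 30 host genes passed adjusted p under 0.05 in either direction, where 0.0983% of all genes were called higher and 0.157% lower. At an unadjusted p under 0.05, 8 were higher (5.48% of all genes) and SNHG14 was lower (10.2%). DESeq2 called 6 of 30 higher (ZFAS1, SNHG9, SNHG5, SNHG1, SNHG12 and SNHG17), where it called 3.24% of genes higher. It called 0 of 30 lower (7.51% of genes). The limma-voom test called ZFAS1, SNHG5, SNHG1 and SNHG12 higher (1.59% of genes) and 0 lower (1.66%). The edgeR fit has 2 residual degrees of freedom for a gene, and the spread of each gene is moderated over all genes. The p-values thus rest on the spread between these 3 lines and on spread borrowed from other genes. The labels do not say how many cultures went into a library, so spread between cultures of a line is not measured.

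The across-line log2 fold was positive in 22 of 30 host genes (41.7% of all genes), with a median of 1.03 beside -0.27 for all genes. The largest was that of SNHG9, at 2.82 (SE 1.29, edgeR adjusted p = 0.319). SNHG12 was at 2.66 (SE 1.17, edgeR adjusted p = 0.301) and ZFAS1 at 2.53 (SE 0.828, edgeR adjusted p = 0.200). SNHG5 and SNHG17 had smaller folds and smaller errors, with SNHG5 at 1.85 (SE 0.558, edgeR adjusted p = 0.173) and SNHG17 at 1.85 (SE 0.547, edgeR adjusted p = 0.166). With HCC827 left out, 1 host gene passed, ZFAS1, at 3.55 (edgeR adjusted p = 0.05 when rounded), where 0.613% of all genes were called higher. SNHG14 had the lowest across-line fold, at -1.57 (SE 0.657, edgeR adjusted p = 0.287); its HCC827 libraries hold 0 counts.

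The departure of a line from the others was tested with edgeR through the interaction of treatment and line (1 residual degree of freedom). The line set apart enters as 1 AL-X and 1 DMSO library that the model fits exactly, so the spread comes from the other lines, moderated over all genes, and a call takes the unreplicated line to vary as they do. SNHG12 was the only host gene called for A549, with a fold 5.50 log2 units above the mean of the other lines (SE 1.13, edgeR adjusted p = 0.0248), where 0.28% of all genes were called. At an unadjusted p under 0.05, 12 host genes lay above the other lines in A549 and 1 below (11% of all genes in both directions together). SNHG3 came next, at 3.80 (SE 0.945, edgeR adjusted p = 0.0606). For HCC827, 0 of 30 were called (0.261% of all genes), with SNHG12 at -4.71 (edgeR adjusted p = 0.068), and at an unadjusted p under 0.05 10 lay below the other lines and 1 above (8.19% of all genes). For H1975, 0 of 30 were called (0% of all genes), and 0 at an unadjusted p under 0.05 (1.16%). The SNHG12 call for A549 was lost with library totals (4.64, edgeR adjusted p = 0.0986), with DESeq2 size factors (5.51, edgeR adjusted p = 0.0544) and without the filter on low counts (5.21, edgeR adjusted p = 1.0).

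The snoRNAs inside the host genes can be read only in part. By GENCODE 29, 144 snoRNA or scaRNA genes of the counts table lie inside 30 of the 32 hosts, 84 of them in SNHG14. None lies in GAS5 or SNHG27. Genes absent from the counts table were not searched, so neither host is shown to lack snoRNAs. Of the 144, 56 had 0 counts in all 6 libraries. Their summed counts were 4013, 183 and 1085 with AL-X in A549, HCC827 and H1975, against 342, 329 and 301 with DMSO. Libraries of polyadenylated, size-selected RNA are not made for mature snoRNAs, and whether these reads come from mature snoRNAs or from unspliced host RNA was not tested. Of the snoRNA genes lying wholly within host exons, SCARNA17 had the most counts, 54 over the 6 libraries. How reads shared by a snoRNA gene and a host exon were assigned is not stated, and its part in these counts was not tested. The 10 snoRNA genes with the most counts all lie outside annotated exons of their host. The sequences of 3 box C/D snoRNAs that differed most in A549 among these 10 are shown from the GENCODE 29 transcripts (GRCh38), with the C box, where the letters ATGATGA or GTGATGA are found, and the D box CTGA in capitals. SNORD104 is at chr17:64146083-64146152 (plus strand), SNORD99 at chr1:28578749-28578822 (minus strand) and SNORD12C at chr20:49278940-49279028 (plus strand).
SNORD104: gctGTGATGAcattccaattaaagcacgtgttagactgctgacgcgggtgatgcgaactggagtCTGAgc
SNORD99: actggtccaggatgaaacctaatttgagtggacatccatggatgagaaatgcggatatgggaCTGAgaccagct
SNORD12C: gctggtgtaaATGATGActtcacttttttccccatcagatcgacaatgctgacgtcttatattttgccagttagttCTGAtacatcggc

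SNORD104, in SNHG25, had 2884 counts with AL-X and 44 with DMSO in A549, 16 and 33 in HCC827, and 384 and 28 in H1975, log2 folds of 6.82, -0.73 and 3.98. SNORD99, in SNHG12, had 288 counts with AL-X and 6 with DMSO in A549, 6 and 16 in HCC827, and 84 and 8 in H1975. SNORD12C, in ZFAS1, had 311 and 2, 3 and 3, and 21 and 8 with AL-X and DMSO in the same lines. All 3 were higher with AL-X in A549 and in H1975 and lower or equal in HCC827 by counts, as their hosts were except for ZFAS1 in HCC827. SNORA71B, in SNHG17, had 104 counts with AL-X and 49 with DMSO in A549, 40 and 56 in HCC827, and 244 and 56 in H1975. SNORA73B, in SNHG3, had 93 and 51, 22 and 58, and 112 and 36 in the same order. SNORD60, in SNHG19, had 129 counts with AL-X and 16 with DMSO in A549, 7 and 27 in HCC827, and 4 and 18 in H1975. A second annotated snoRNA gene inside it, ENSG00000281010, had 24 counts with AL-X and 5 with DMSO in A549, 2 and 4 in HCC827, and 16 and 1 in H1975, so that no direction can be read for this snoRNA in H1975.

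**Figure D4:**
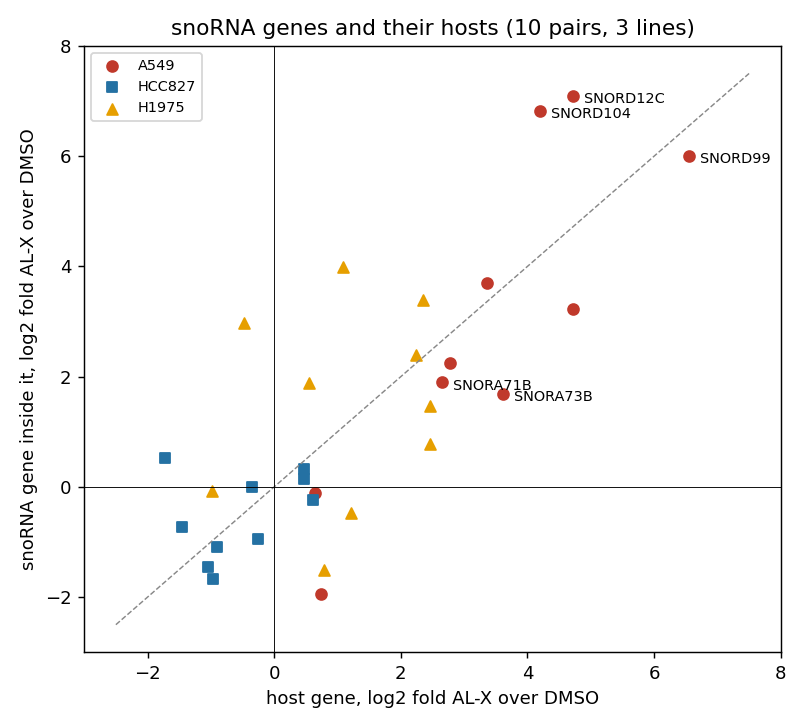
Log2 fold, AL-X over DMSO, of the 10 snoRNA genes with the most counts (vertical) against that of their host gene (horizontal) in A549 (circles), HCC827 (squares) and H1975 (triangles); the dashed line marks equal folds. SNORD104, SNORD99 and SNORD12C lie at the upper right in A549; the points rest on few counts, from 1 upward, and no correlation was taken from them.

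Genes that start within 1000 bases of a host gene on the opposite strand had folds of either sign. SLC3A2, an amino acid transporter subunit that starts 188 bases from SNHG1, had 97287 counts with AL-X and 40037 with DMSO in A549, 53449 and 13109 in HCC827, and 51164 and 10915 in H1975. Its log2 folds were alike in the 3 lines, at 2.14, 2.27 and 2.54, whereas SNHG1 was at 4.88, 0.10 and 2.27. ZBTB37, 800 bases from GAS5, was at -3.74, -0.51 and -3.13 in A549, HCC827 and H1975, opposite in sign to GAS5 in A549 and H1975. ZNFX1, 248 bases from ZFAS1, was at 2.11, 1.01 and -0.03, and shares 249 exon bases with it. RPS2, the ribosomal protein gene beside SNHG9, was at 1.40, -0.69 and 1.25. TRAF7 beside SNHG19 was at 0.93, 0.13 and 1.14, ACAA2 beside SNHG22 at 0.04, -0.87 and 0.05, and BARD1 beside SNHG31 at -0.48, -2.18 and -1.13. SEMA5A beside SNHG18 had 0 counts in both A549 libraries, and the unnamed neighbours ENSG00000267546 of SNHG16 and ENSG00000255513 of SNHG9 had at most 135 counts in a library. ENSG00000272668, beside SNHG28, had 0 counts with AL-X and 731 with DMSO in A549, 23 and 139 in HCC827, and 17 and 894 in H1975. It shares 99 exon bases with SNHG28.

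Gene lists that share a feature with the host genes were set beside them, by counts and medians. Coding genes that host snoRNAs had 0 of 30 past the across-line edgeR test, and 2 were higher at an unadjusted p under 0.05 (5.48% of all genes). Their median log2 folds were 1.96, -0.54 and 1.28 in A549, HCC827 and H1975, the same order of lines as in the SNHG genes. HSPA8, a chaperone gene, was at 4.11, -1.05 and 3.22 and EIF4A2, a translation initiation factor, at 4.47, -0.07 and 2.34. The lowest across-line folds of that list were those of RACK1 (0.92, -0.71 and 0.94) and RPL7A (1.07, -0.75 and 1.00). The list overlaps that of ribosomal protein genes, RPL7A being in both, so the medians of the lists are not separate results.

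Ribosomal protein genes had 0 of 79 past the across-line edgeR test, and 6 were higher at an unadjusted p under 0.05 (5.48% of all genes). Their medians were 1.98, -0.50 and 1.32 in A549, HCC827 and H1975. All 79 were 2-fold or more higher with AL-X in A549 (29.8% of all genes), 0 in HCC827 (10.7%) and 71 in H1975 (15.4%). RPS28 (4.18, -0.19 and 2.07) and FAU (3.57, 0.38 and 1.82) had the highest across-line folds and RPL3 (1.23, -1.04 and 1.22) and RPL7A the lowest. Host genes whose RefSeq entry has a TOP start had medians of 3.17 (n = 6), 0.05 (n = 5) and 1.86 (n = 5) in the 3 lines, beside 2.41 (n = 17), -0.34 (n = 14) and 0.97 (n = 14) for those whose RefSeq entry has none. The second group includes GAS5, SNHG1, SNHG3, SNHG8, SNHG11 and SNHG16, which have such a start in at least 1 GENCODE transcript. It also includes SNHG29, SNHG30 and SNHG31, whose GENCODE transcripts were not scanned. SNHG6, SNHG9, SNHG15 and SNHG25 have no RefSeq entry and are in neither group, though SNHG6 and SNHG25 have GENCODE transcripts with a TOP start. Which start the cells use was not measured.

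The proteins of the snoRNA particles had 0 of 18 past the across-line edgeR test, with 2 higher at an unadjusted p under 0.05 (5.48% of all genes). Their medians were 1.43, -0.44 and 0.85 in A549, HCC827 and H1975. NOP56, a core protein of box C/D particles, was at 3.74, -0.42 and 2.09, and NOP10, a core protein of box H/ACA particles, at 3.25, 0.28 and 1.36. The assembly factors NUFIP1 (-0.48, -0.78 and -0.35) and PIH1D1 (0.70, -0.72 and -0.43) had the lowest across-line folds.

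NMD factors had 0 of 21 past the across-line edgeR test. At an unadjusted p under 0.05, 3 were higher (5.48% of all genes) and 1 lower (10.2%). Their medians were 0.97, 0.17 and 0.41 in A549, HCC827 and H1975. EIF4A3, the helicase of the exon junction complex, had 165563 counts with AL-X and 9476 with DMSO in A549, 16825 and 9817 in HCC827, and 46012 and 9875 in H1975, for 4.98, 1.02 and 2.53 log2 units. MAGOH, of the same complex, was at 3.03, 0.13 and 1.39. NBAS (-2.72, -1.21 and -0.31) and the endonuclease SMG6 (-1.97, 0.40 and -0.24) had the lowest across-line folds.

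Coding messages known as NMD targets did not show the HCC827 difference in their median. None of the 10 passed the across-line edgeR test. At an unadjusted p under 0.05, 5 were higher (5.48% of all genes) and 0 lower (10.2%). The medians were 1.65, 1.61 and 1.82 in A549, HCC827 and H1975. In HCC827, 8 of 9 considered were 2-fold or more higher (10.7% of all genes), where 0 of 21 SNHG genes were. GADD45B, a stress-induced gene, was at 8.34, 1.61 and 5.88 and UPP1, uridine phosphorylase, at 4.83, 3.16 and 1.79. SLC7A11, the cystine transporter, was at -2.56, 3.52 and 0.16, and HFE, an iron regulator, at -1.70, -0.66 and -0.58. Several of these genes are also known to be induced by stress at transcription.

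Long non-coding RNAs outside the set had medians near those of all genes, at 0.36, -0.05 and 0.14 in A549, HCC827 and H1975. Of 18, 1 passed the across-line edgeR test as higher with AL-X (0.0983% of all genes). It was MIR22HG, the host gene of a microRNA, at a log2 fold of 4.32 (SE 0.577, adjusted p = 0.0151 by edgeR). It had 38424 counts with AL-X and 2159 with DMSO in A549, 16459 and 1381 in HCC827, and 15756 and 1114 in H1975. That call was lost with library totals, without the filter and without the line block. LINC-PINT was at 1.51, 2.71 and 4.15, and MALAT1 (-2.83, -1.55 and -1.40) and OIP5-AS1 (-3.70, -0.48 and -1.53) were lowest, each with an edgeR adjusted p above 0.05.

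**Figure D5:**
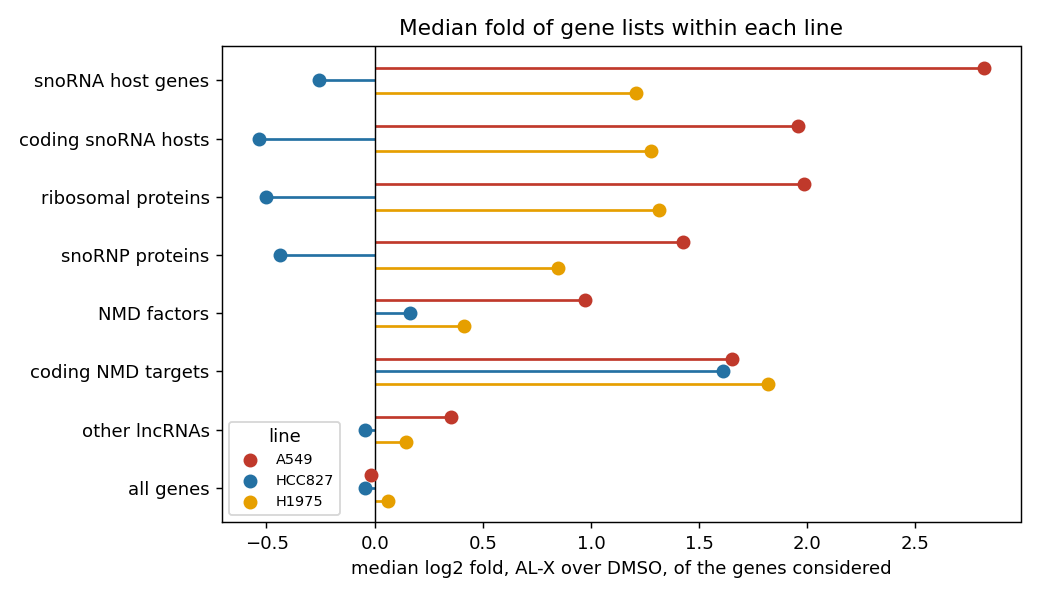
Median log2 fold, AL-X over DMSO, of each gene list within A549 (red), HCC827 (blue) and H1975 (orange), over the genes considered in that line. The SNHG set (2.82, -0.26 and 1.21), coding snoRNA hosts, ribosomal proteins and snoRNA particle proteins have blue points below 0 and red and orange points above it; the coding NMD targets lie at 1.65, 1.61 and 1.82.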

How the data were processed

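Total RNA was extracted with Trizol and made into mRNA libraries with a SureSelect XT HS2 kit and bead size selection, per the labels' protocols. The submitters' processing notes name bcl2fastq 2.20 and GRCh38. For aligner, counter, annotation release, strand setting and barcode handling, nothing is given in the sources used here. Raw read counts per Ensembl gene in 6 libraries, whole numbers without normalization, are what the authors deposited. A gene's count covers spliced and intron-retaining models alike.

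From these counts, edgeR 4.0.16 in R 4.3.3 (TMM, filterByExpr by treatment, robust quasi-likelihood test, cell line as block, Benjamini-Hochberg adjustment at 0.05) gave the across-line folds, with each SE taken from the fold and its F value. Interaction terms tested line differences. The numbers pair the libraries because the cell line tag gives each pair its line; deviations from group means correlated at 0.656, 0.521 and 0.694 in A549, HCC827 and H1975. Within a line, log2 folds of TMM-scaled CPM used a prior count of 2, with exact binomial 95% intervals of the count ratio. Bounds against 0 counts used a floor of 3 counts per library.

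Positions, exon lengths and snoRNA genes came from GENCODE 29 on GRCh38, with coordinates for 58453 genes and symbols for 42020. Promoters came from RefSeq GRCh38.p14, from 250 bases before to 50 after the start. Merged exon length, not transcript length, was the divisor of CPM per kb.

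The members and gene lists were chosen with earlier results of these data known. Named genes were every member, in each other list the genes past the test and up to 2 from either end by across-line fold, opposite-strand neighbours within 1000 bases and the 10 snoRNA genes with the most counts. Overlapping genes and printed sequences were chosen after values were seen. The scripts were tested on simulated data. Alternatives were library totals, DESeq2 size factors, scaling without mitochondrial genes, no filter, 1 CPM in 3 libraries, DESeq2 1.42.0, limma-voom (limma 3.58.1), no robust shrinkage, no line block, each line left out, a prior count of 0.5, and a 1 CPM minimum within lines.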

Additional observations from a re-analysis of the deposited data

Results flagged for a closer look

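Effects of AL-X that differed between lines by edgeR's interaction term (adjusted p under 0.05) were found for 1 host gene and 3 genes named beside them. Each rests on 1 AL-X and 1 DMSO library of the line set apart, with the spread taken from the other lines (1 residual degree of freedom). The effect on SNHG12 in A549 lay 5.50 log2 units above the mean of the other lines; this call was lost with library totals, with DESeq2 size factors and without the filter on low counts. The effect on SLC7A11 in HCC827 lay 4.72 log2 units above that of the other lines, and the effect on GADD45B in HCC827 differed by -5.50. ENSG00000285565, which overlaps SNHG32, differed by -16.28 in HCC827; 2 of its libraries held 0 counts, so that the fitted size depends on the prior count and is no bound.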

How the results depend on the processing

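Of 354 host gene folds recomputed across lines, 327 kept their sign and their side of the threshold, 11 passed it only in the alternative, and 16, in 11 genes, reversed; no reversed fold passed the test. Host genes called higher numbered 6 with DESeq2, 4 with limma-voom and 0 to 1 with a line left out (1 without HCC827). For NMD factors these counts were 1, 1 and 0 to 1, for coding NMD targets 5, 4 and 0 to 2, and for coding snoRNA hosts 2 with DESeq2 and 0 to 1 with a line left out. DESeq2 called 1 ribosomal protein gene and 0 snoRNA particle proteins higher, and limma-voom 0 of either. Other long non-coding RNAs called higher were 0 with library totals, 0 without the filter, 0 with no replicate block, 3 with DESeq2, 3 with limma-voom and up to 2 with a line left out (2 without A549); called lower were 2 with DESeq2 and 1 with limma-voom. Host genes called for A549 against the other lines were 0 with library totals, 0 with DESeq2 size factors and 0 without the filter. In H1975, 7 host genes were 2-fold higher and 3 lower with library totals, and 1 lower with a 1 CPM minimum. Host genes 2-fold lower in HCC827 numbered 2 with library totals, 2 with DESeq2 size factors and 4 with a 1 CPM minimum. With no replicate block, in place of the pairing by line, 0 of 30 host genes were called and 23 were positive.

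With a line left out, across-line folds that reversed in at least 1 case ranged from -0.13 to 2.04 for SNHG3, -0.22 to 0.55 for SNHG16, -0.16 to 2.66 for SNHG25, -0.08 to 2.05 for SNHG19, -0.13 to 1.43 for SNHG8, -0.01 to 1.91 for SNHG20 and -0.21 to 0.85 for SNHG30, each lowest without A549. They ranged from -3.41 to 1.54 for SNHG28, highest without A549, and from -1.06 to 0.04 for SNHG4 and -0.65 to 0.21 for DANCR, highest without HCC827. With library totals SNHG16 was -0.38 and SNHG30 -0.18, without the filter SNHG16 was -0.04, and with no replicate block SNHG31 was 0.25. The cause was not tested.

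Depth limits SNHG9, SNHG18, SNHG22, SNHG25, SNHG27, SNHG28 and SNHG31, which had under 100 counts in several libraries. With 1 library per treatment and line, no fold within a line has a replicate check, and leaving a line out leaves 1 residual degree of freedom.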
